A study of Homo sapiens with 12 samples.

Results

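The integrated stress response and the unfolded protein response were followed through 38 genes, 22 of an amino acid branch and 16 of an endoplasmic reticulum (ER) branch, of 61552 genes in the deposited count tables. The members were a list of named genes matched to the tables by symbol, and all 38 passed the filter on low counts. RNA-seq had been made of 2 human breast cancer lines, HCC38 and MDA-MB-231, both of the triple-negative subtype, whose cells lack the oestrogen and progesterone receptors and HER2 amplification. Each line was wild type per the labels and was either left untreated or held for 48 h in 400 IU/mL of interferon-β, one of the type I interferons. The 4 groups of line by treatment held 3 libraries each. HCC38 was kept in RPMI-1640 and MDA-MB-231 in DMEM with 1 g/L glucose, media that differ in amino acids as well as sugar, and an effect of the line cannot be told apart from one of its medium. The labels call the libraries biological replicates without naming separate cultures, and the p-values thus rest on a spread among libraries that may be partly technical.

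In the integrated stress response, a set of kinases phosphorylates the initiation factor eIF2 under amino acid shortage, haem shortage, viral double-stranded RNA or ER stress. General translation falls while the mRNA of the transcription factor ATF4 is translated more, and ATF4 turns on amino acid synthesis, amino acid transport and feedback genes. The unfolded protein response senses misfolded protein in the ER through PERK (encoded by EIF2AK3), IRE1 (ERN1) and ATF6, which raise chaperones and the disposal of misfolded proteins. Much of this control acts on phosphorylation, translation, XBP1 splicing and ATF6 cleavage, none of which a gene's read count measures.

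Levels are CPM, the read count scaled to the TMM-adjusted size of the library. Changes are log2 fold changes from edgeR's quasi-likelihood test, which reports no SE. The SE of an edgeR change is the absolute change divided by the square root of the test's F statistic. Called means an adjusted p (Benjamini-Hochberg, across the 18121 genes tested) under 0.05. The libraries held 26660038 to 43588773 counts. The 8 interferon-stimulated genes used as a check of the treatment rose in both lines. MX1, an antiviral GTPase, went from 255.9 ± 11.5 to 889 ± 50.55 CPM in HCC38 and from 2.985 ± 0.426 to 346 ± 19.99 CPM in MDA-MB-231 (mean ± SD, n = 3). Of the receptor genes of the subtype, ESR1 and PGR were below 0.1 CPM in every library. ERBB2, which encodes HER2, was expressed, at 162.8 ± 6.94 CPM in untreated HCC38 and 63.3 ± 0.902 CPM in untreated MDA-MB-231. Amplification of HER2 was not tested. Among markers of other cell types, 7 fibroblast and endothelial genes summed to 2700 to 3240 CPM in untreated and 2390 to 2920 CPM in treated HCC38, and to 12.3 to 19.3 and 20.9 to 25.8 CPM in MDA-MB-231. Most of the HCC38 sum was the collagen gene COL1A1 (2626 ± 289 CPM untreated). Of the other fibroblast genes on the list, COL1A2 was at 269.7 CPM, LUM at 1.488 CPM and DCN at 0.313 CPM in untreated HCC38. The 7 leukocyte markers summed to at most 6.31 CPM in any library. The loci of ATF5, DDIT3, ASNS, SHMT2, MTHFD2, CEBPB, EIF2AK1, EIF2AK4, SLC7A5, VLDLR, ATF6, EIF2AK3, HSP90B1, ERN1, DNAJC3, HERPUD1, EDEM1, CALR and CRELD2 overlap other annotated loci, so their counts are uncertain where reads could be split.

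MDA-MB-231 libraries fell into sets by the number in their deposited names. The untreated libraries carry the numbers 1, 2 and 4 and the treated libraries 1, 4 and 5, and their values are listed in that order throughout. Libraries left out of a fit are named by replicate where no number is given, so MDA-MB-231 untreated 3 is the library numbered 4, and interferon-β 2 and 3 are those numbered 4 and 5. Within a treatment group, MDA-MB-231 libraries of different sets gave a chi-square per degree of freedom of 42.4 to 62.3, while the 2 pairs from the same set gave 5.34 and 11.5 and the HCC38 pairs 4.10 to 14.1. The treated group holds 2 libraries of the set numbered 4 and 5 and the untreated group 1, so a plain difference of group means mixes set with treatment. All 12 libraries were therefore fitted together with a term for the set, and the labels do not say what the numbers stand for. Tests within a set, and the test of whether the sets responded differently, rest on 1 treated library (numbers 1 and 2) or 1 untreated library (numbers 4 and 5), which is assumed to vary like the other libraries in the fit, so their values are no replicated support. Without that term the tests called 7 members in MDA-MB-231. In HCC38 they called 0 (6 at an unadjusted p under 0.05), and for the difference between lines 0 (13 at an unadjusted p under 0.05). Calls over all genes went from 4095 to 2272 in MDA-MB-231, from 1913 to 659 in HCC38 and from 2218 to 637 for the difference. The set term applies to MDA-MB-231 libraries only, and a fit of the 6 HCC38 libraries alone called 9 members in HCC38.

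Promoter sequences were read for elements that stress factors and interferon factors bind. In RefSeq's promoter table (build GRCh38.p14, 250 bases before to 50 after each start), 35 of the 38 members had an entry. PSPH, SHMT2 and EIF2AK1 had none. Motifs were searched on both strands. The ER stress element, CCAAT and CCACG with 9 bases of any kind between them, stood in 5 of 16 ER genes (31.2%), against 0.0916% of all genes in the table. Its windows are printed 5′ to 3′ along the gene with the element in capitals. They belong to the chaperones HSPA5, HSP90B1 and CALR, which rose in HCC38, and to XBP1 and CRELD2, which were called in neither response. PDIA4, which also rose in HCC38, had an entry and no match. The members were listed as genes of these stress responses, so the excess over all genes describes the list. A link between the element and the response to interferon-β was not tested.
HSPA5 (chr9:125241386-125241414, minus strand): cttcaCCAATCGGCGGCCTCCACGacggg
HSP90B1, first element (chr12:103930211-103930239, plus strand): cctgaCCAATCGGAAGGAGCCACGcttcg
HSP90B1, second element on the other strand (chr12:103930316-103930344, plus strand): gggtgCGTGGTGCGGCGCGATTGGtgggt
CALR, element on the other strand (chr19:12938359-12938427, plus strand): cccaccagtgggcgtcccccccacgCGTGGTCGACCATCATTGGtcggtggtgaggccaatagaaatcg
XBP1 (chr22:28800598-28800626, minus strand): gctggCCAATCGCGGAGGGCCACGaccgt
CRELD2, element on the other strand (chr22:49918549-49918577, plus strand): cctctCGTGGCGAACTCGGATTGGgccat

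The element bound by ATF4 with C/EBP partners, spelled here TGATGNAA, stood in 5 of 19 amino acid genes with an entry (26.3%) and in 1 ER gene, HERPUD1, against 4.46% of all genes. The amino acid genes were ATF3, ASNS, CHAC1, CEBPG and SLC3A2, the last with its match after the start. Of these genes, ASNS and HERPUD1 were called lower in MDA-MB-231, SLC3A2 was called higher there, and ATF3, CHAC1 and CEBPG were called in neither response. PSAT1 and MTHFD2, also called lower in MDA-MB-231, had entries and no match. The share again describes a list of named stress genes. Windows upstream of the start are printed in the same way.
ATF3 (chr1:212565191-212565248, plus strand): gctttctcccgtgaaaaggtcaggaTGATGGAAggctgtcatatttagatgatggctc
ASNS (chr7:97872458-97872487, minus strand): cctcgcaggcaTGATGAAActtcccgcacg
CHAC1, element on the other strand (chr15:40953251-40953280, plus strand): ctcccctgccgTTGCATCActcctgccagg
CEBPG (chr19:33374060-33374089, plus strand): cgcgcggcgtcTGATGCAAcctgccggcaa
HERPUD1, element on the other strand (chr16:56931941-56931998, plus strand): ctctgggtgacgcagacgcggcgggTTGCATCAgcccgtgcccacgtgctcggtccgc

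The interferon-stimulated response element, GAAA and GAAA with 2 bases of any kind between them, was matched in ATF5 alone among the 35 members, against 4.38% of all genes. The pair of upstream matches overlaps, and the first is in capitals.
ATF5 (chr19:49928805-49928834, plus strand): tgcaagcaagGAAAGGGAAAgagaaatgaa
The UPR element TGACGTGG, which stood in 0.927% of all genes, had no match in these windows.

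Interferon-β was followed by different changes in the branches of the lines. HCC38 raised ER chaperones, by 1.21-fold to 1.36-fold, and lowered DDIT4 and the serine synthesis genes PSAT1 and PHGDH. The PHGDH call was lost without any of 8 libraries, and PSPH of the same pathway was not called. MDA-MB-231 lowered PSAT1 by 1.83-fold, other serine and one-carbon genes and several ER genes, and raised the amino acid transporter genes SLC7A5 and SLC3A2. Their HCC38 estimates also pointed upward (0.18 and 0.16, not called), and the difference between lines was not called for either. The tests called 10 of 38 members in HCC38, 5 higher and 5 lower, where 10.6% of all genes were called (5.81% higher, 4.75% lower). In MDA-MB-231 they called 15 members, 5 higher and 10 lower, where 22.6% of all genes were called (11.6% higher, 11% lower). The median change of the members was 0.017 in HCC38 and -0.12 in MDA-MB-231, beside medians of -0.004 and 0.009 over all genes tested. In HCC38 the count was 6 without untreated library 3 and 5 without interferon-β library 1. In MDA-MB-231 it was 7 without the untreated library numbered 4 and 9 without the treated library numbered 5. Calls over all genes fell too, from 1913 to 1209 without HCC38 interferon-β library 1. Without the untreated MDA-MB-231 library numbered 4 the MDA-MB-231 calls fell from 4095 to 1177. With library totals in place of TMM factors, genes called higher made up 71.4% of all calls in MDA-MB-231, against 51.3% with TMM. In RNA from whole cultures, a change in every cell cannot be told apart from a larger change in some of them.

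**Figure D1:**
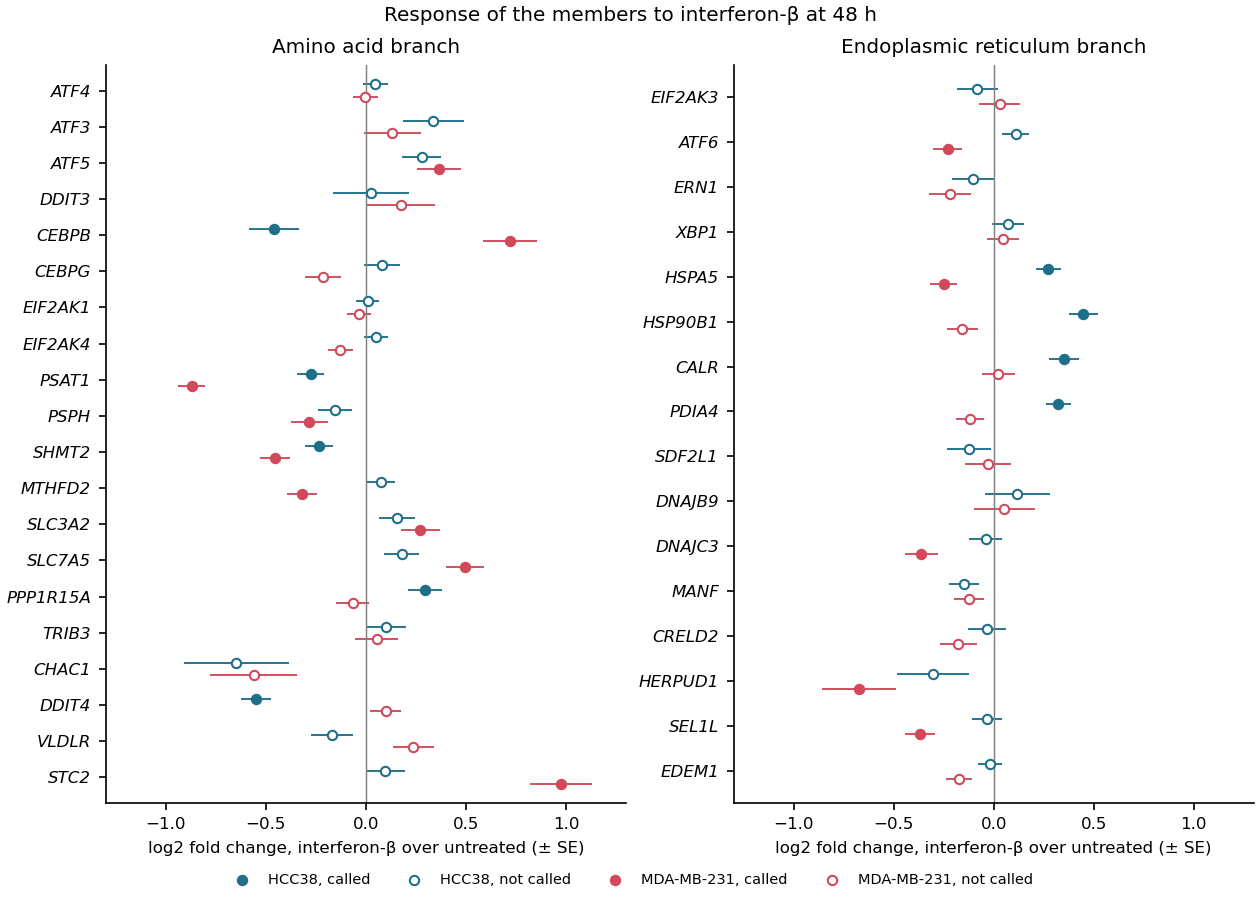
Log2 fold change of the members after interferon-β in each line, with the SE as a bar; filled points were called, and PHGDH and ASNS are left out because their counts are few. The ER chaperones HSPA5, HSP90B1, CALR and PDIA4 lie to the right of 0 in HCC38, and PSAT1 at -0.87 and HERPUD1 at -0.67 lie farthest to the left in MDA-MB-231.

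ATF4, the transcription factor of the amino acid branch, was not called in either line. In HCC38 it measured 247, 242 and 246 CPM untreated and 252, 254 and 255 CPM with interferon-β, and in MDA-MB-231 437, 377 and 271 CPM untreated and 421, 256 and 266 CPM with interferon-β. The HCC38 groups stand a few CPM apart without overlap, and the MDA-MB-231 groups overlap, with the libraries numbered 4 and 5 low in both. The log2 changes were 0.048 ± 0.061, adjusted p = 0.695, and -0.002 ± 0.064, adjusted p = 1.

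DDIT3 encodes CHOP, a transcription factor of prolonged stress. It measured 6.74, 7.49 and 8.21 CPM untreated and 8.43, 7.47 and 6.90 CPM with interferon-β in HCC38 and 18.7, 13.7 and 23.1 CPM untreated and 26.9, 18.4 and 17.3 CPM with interferon-β in MDA-MB-231, and the groups overlap in both lines. Neither change was called (0.024 ± 0.19 and 0.18 ± 0.17). Within MDA-MB-231, however, the change was 0.73 among the libraries numbered 1 and 2 (adjusted p = 0.0113) and -0.38 among those numbered 4 and 5 (adjusted p = 0.0961). A test of the difference between those responses gave -1.11 ± 0.23, adjusted p = 0.083. DDIT3 overlaps MARS1, a tRNA synthetase gene that was called lower in MDA-MB-231 (-0.34).

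CEBPB, a C/EBP factor that acts with ATF4 and in inflammation, moved in opposite directions. HCC38 libraries held 85.1, 57.2 and 68.2 CPM untreated and 46.7, 52.5 and 53.9 CPM with interferon-β, without overlap, a fall of 1.37-fold (-0.46 ± 0.13, adjusted p = 0.0219). The call was lost without any of HCC38 untreated 1, untreated 3 or interferon-β 1 (adjusted p 0.0537 to 0.159), and by limma on FPKM (adjusted p = 0.222). MDA-MB-231 libraries held 26.9, 23.6 and 20.99 CPM untreated and 51.2, 29.7 and 26.01 CPM with interferon-β. The treated library numbered 1 stands far above the rest and the groups overlap at 26.9 and 26.01 CPM. The rise was 1.65-fold (0.72 ± 0.14, adjusted p = 0.000613), and without that library it was 0.41 with an adjusted p of 0.107. The difference between the responses was called (1.18 ± 0.18, adjusted p = 0.000308) and stayed called in every leave-one-out fit.

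ATF5, an ATF4 target and itself a stress transcription factor, rose in MDA-MB-231, where it measured 15.4, 17.1 and 13.4 CPM untreated and 19.8, 17.4 and 19.1 CPM with interferon-β. No untreated library reached the lowest treated one, and the change was 0.37 ± 0.11, adjusted p = 0.02. The call was lost without the untreated library numbered 4 (adjusted p = 0.339) or the treated library numbered 5 (adjusted p = 0.0611). HCC38 showed 42.2, 35.6 and 31.7 CPM untreated and 46.96, 43.9 and 41.97 CPM with interferon-β, which overlap (0.28 ± 0.097, adjusted p = 0.0729). ATF3 and CEBPG, the remaining transcription factors of the branch, were not called in either response. ATF3 lay between 3.73 and 10.7 CPM in all libraries, and CEBPG between 28.3 and 71.2 CPM.

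Neither eIF2 kinase gene of the amino acid branch was called. EIF2AK4, which encodes GCN2, the sensor of uncharged tRNA, measured 64.6, 66.8 and 68.99 CPM untreated and 68.02, 68.8 and 70.6 CPM with interferon-β in HCC38 and 116, 111 and 105 CPM untreated and 104, 96.2 and 95.4 CPM with interferon-β in MDA-MB-231. The first groups overlap and the second do not, and the changes were 0.049 ± 0.060 and -0.13 ± 0.063. EIF2AK1, the haem-regulated kinase, measured 155, 160.4 and 162 CPM untreated and 155, 159 and 166 CPM with interferon-β in HCC38 and 187, 189.8 and 193 CPM untreated and 190.3, 184 and 182 CPM with interferon-β in MDA-MB-231. Its groups overlap, with changes of 0.009 ± 0.057 and -0.034 ± 0.060.

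EIF2AK2, which encodes the double-stranded RNA sensor PKR and is an interferon-stimulated gene, was outside the 38 and was the eIF2 kinase gene that was called. It measured 239.8, 284 and 270.0 CPM untreated and 489.5, 448 and 514 CPM with interferon-β in HCC38 and 115, 116 and 140.3 CPM untreated and 411, 370.1 and 361 CPM with interferon-β in MDA-MB-231. No groups overlap, and the rises were 0.87 ± 0.083, adjusted p = 3.04e-07, and 1.61 ± 0.088, adjusted p = 2.5e-11. The MDA-MB-231 rise was larger by 0.73 ± 0.12, adjusted p = 0.00044.

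PSAT1, which encodes the transaminase of serine synthesis, fell in both lines and fell further in MDA-MB-231. HCC38 libraries held 62.00, 66.5 and 65.9 CPM untreated and 51.5, 53.2 and 55.9 CPM with interferon-β, and MDA-MB-231 libraries 263, 256 and 191 CPM untreated and 154, 97.2 and 95.2 CPM with interferon-β. Neither pair of groups overlaps. The fall was 1.21-fold in HCC38 (-0.28 ± 0.067, adjusted p = 0.00976) and 1.83-fold in MDA-MB-231 (-0.87 ± 0.067, adjusted p = 7.48e-09). Within the library sets of MDA-MB-231 it was -0.76 among numbers 1 and 2 and -0.99 among numbers 4 and 5, each with 1 library in an arm. The difference between lines was -0.59 ± 0.094, adjusted p = 0.000362. Without HCC38 interferon-β library 1 the HCC38 fall had an adjusted p of 0.0867.

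SHMT2, the mitochondrial enzyme that takes serine into one-carbon metabolism, also fell. It measured 137, 128 and 132 CPM untreated and 110.5, 123 and 104 CPM with interferon-β in HCC38 and 299.8, 284 and 189.5 CPM untreated and 201, 138 and 154 CPM with interferon-β in MDA-MB-231. The HCC38 groups are separate, while in MDA-MB-231 the untreated library numbered 4 overlaps the treated library numbered 1. The changes were -0.23 ± 0.070, adjusted p = 0.0366, and -0.46 ± 0.074, adjusted p = 0.00016. In MDA-MB-231 the change was -0.54 among numbers 1 and 2 and -0.38 among numbers 4 and 5, each with 1 library in an arm. In HCC38 the call was lost when any of 6 libraries was left out, namely HCC38 untreated 1, 2 or 3, interferon-β 1 or 3, or MDA-MB-231 untreated 2 (adjusted p 0.0565 to 0.175). It was also lost by limma on the FPKM values (-0.20, adjusted p = 0.22).

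MTHFD2, the next mitochondrial enzyme of that pathway, fell in MDA-MB-231, where it measured 325, 299 and 336 CPM untreated and 275, 246 and 243 CPM with interferon-β. All treated libraries lie below all untreated ones, with a change of -0.32 ± 0.074, adjusted p = 0.00357. Without the untreated library numbered 4 the change was -0.18 (adjusted p = 0.302). In HCC38 it measured 162, 181 and 185 CPM untreated and 184, 177 and 195 CPM with interferon-β, which overlap (0.074 ± 0.071). The difference between lines was -0.39 ± 0.10, adjusted p = 0.0157, and it was lost without the same library (adjusted p = 0.231).

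PSPH, the phosphatase that completes serine synthesis, measured 30.99, 30.1 and 31.8 CPM untreated and 27.9, 28.2 and 27.3 CPM with interferon-β in HCC38 and 29.5, 25.8 and 23.9 CPM untreated and 24.9, 16.9 and 18.9 CPM with interferon-β in MDA-MB-231. The first groups are separate and the second overlap. The change was called in MDA-MB-231 (-0.28 ± 0.091, adjusted p = 0.0311) and not in HCC38 (-0.15 ± 0.087, adjusted p = 0.294). The MDA-MB-231 call was lost without any of untreated 1 or 3 or interferon-β 2 or 3 (adjusted p 0.052 to 0.584).

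PHGDH, the enzyme at the head of serine synthesis, was near zero in MDA-MB-231. Each untreated MDA-MB-231 library held a single count, 3 in all, and the treated libraries held 0. HCC38 libraries held 238, 209.5 and 221 CPM untreated and 182, 209 and 172 CPM with interferon-β. The untreated HCC38 level was 7630 times that of MDA-MB-231, with a 95% Poisson interval of 2610 to 37000 that covers counting error only. With interferon-β, MDA-MB-231 was at least 6520-fold lower, taking 3 counts over the group as the floor. Within HCC38 the groups are separate and PHGDH fell by 1.19-fold (-0.25 ± 0.075, adjusted p = 0.0415). That call was lost without any of 8 libraries, 4 of each line (adjusted p 0.0501 to 0.213), namely HCC38 untreated 1 or 3 or interferon-β 1 or 3 and MDA-MB-231 untreated 1 or 2 or interferon-β 2 or 3. DESeq2 and median-of-ratios size factors also ended it.

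ASNS, which makes asparagine and is a classical ATF4 target, is reported by FPKM. Its counts were few, 1.05 CPM on average where the FPKM averaged 27.9, and its locus overlaps others. Whether the overlap left reads uncounted was not tested. The deposited FPKM were 17.7, 18.6 and 19.3 FPKM untreated and 15.5, 16.4 and 15.9 FPKM with interferon-β in HCC38. In MDA-MB-231 they were 74.4, 67.7 and 27.4 FPKM untreated and 35.6, 13.1 and 12.8 FPKM with interferon-β. The HCC38 groups are separate, and in MDA-MB-231 the untreated library numbered 4 falls below the treated library numbered 1. Limma on log2(FPKM + 1) gave -0.21 (adjusted p = 0.0592) in HCC38 and -0.999 ± 0.056 (adjusted p = 8.74e-06) in MDA-MB-231, a difference of -0.79 (adjusted p = 0.00133). By counts the MDA-MB-231 change was -0.94 ± 0.29, adjusted p = 0.0249, lost without any of untreated 1 or 3 or interferon-β 1 or 3 (adjusted p 0.0542 to 0.38).

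SLC7A5 and SLC3A2 encode the light and heavy chains of LAT1, an exchanger of large neutral amino acids, and both rose in MDA-MB-231. SLC7A5 measured 702, 678 and 818 CPM untreated and 909, 1140 and 1325 CPM with interferon-β, all treated libraries above all untreated ones, a rise of 1.41-fold (0.50 ± 0.093, adjusted p = 0.000588). The change was 0.39 among numbers 1 and 2 and 0.59 among numbers 4 and 5, each with 1 library in an arm. Without the untreated library numbered 4 the adjusted p was 0.055. In HCC38 it measured 454, 393 and 413 CPM untreated and 463, 548 and 416 CPM with interferon-β, which overlap (0.18 ± 0.087, adjusted p = 0.211).

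SLC3A2 measured 336, 302 and 276 CPM untreated and 342, 349 and 402 CPM with interferon-β in MDA-MB-231. The groups are separate by a few CPM (0.27 ± 0.096, adjusted p = 0.0456). That call was lost without any of 7 libraries, namely HCC38 untreated 2 or 3 or interferon-β 1 and MDA-MB-231 untreated 2 or 3 or interferon-β 2 or 3 (adjusted p 0.0577 to 0.73), and by limma on FPKM (adjusted p = 0.163). HCC38 held 189, 174 and 168 CPM untreated and 203, 218 and 171 CPM with interferon-β, which overlap (0.16 ± 0.089, adjusted p = 0.303). The difference between lines was not called for either chain (SLC7A5 0.32 ± 0.13, adjusted p = 0.11, and SLC3A2 0.12 ± 0.13, adjusted p = 0.624).

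**Figure D2:**
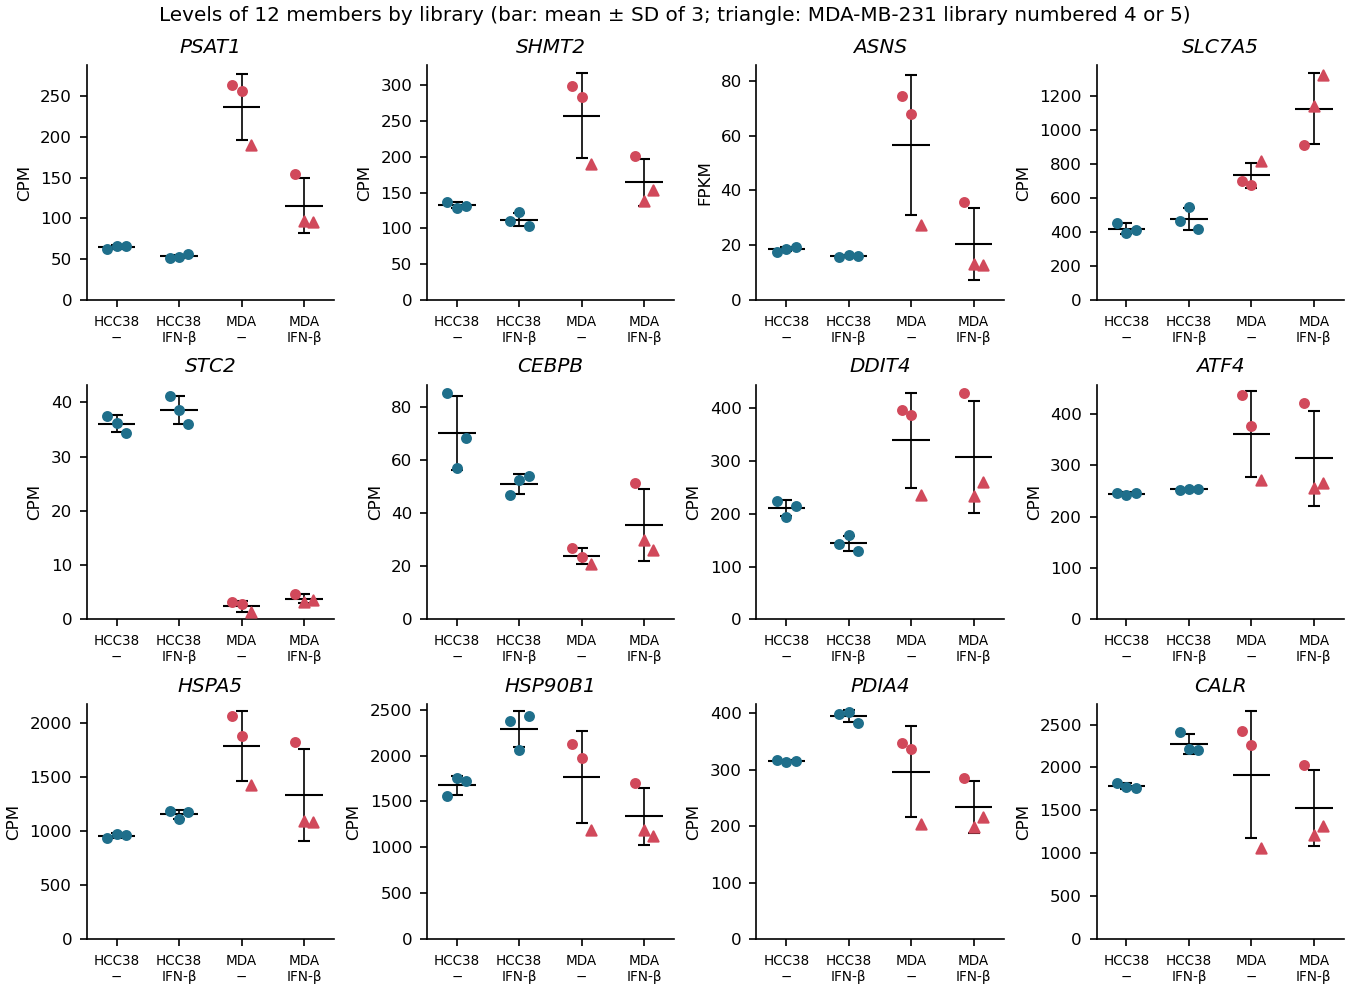
Level of 12 members in each library, in CPM (FPKM for ASNS); the horizontal line is the mean and the bar the SD of 3 libraries, and triangles are MDA-MB-231 libraries numbered 4 or 5. HSPA5, HSP90B1, PDIA4 and CALR are higher in all treated than in all untreated HCC38 libraries, and their MDA-MB-231 triangles lie below the circles.

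DDIT4, an inhibitor of mTORC1 that stress and glucocorticoids induce, fell in HCC38. It measured 224, 194 and 214 CPM untreated and 142, 159 and 130.3 CPM with interferon-β, without overlap, a fall of 1.46-fold (-0.55 ± 0.075, adjusted p = 3.85e-05). MDA-MB-231 held 396, 386 and 236 CPM untreated and 429, 234 and 261 CPM with interferon-β, where the libraries numbered 4 and 5 are low in both groups and the change was 0.10 ± 0.078, adjusted p = 0.393. The responses differed by 0.65 ± 0.11, adjusted p = 0.000523.

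PPP1R15A encodes GADD34, which brings the phosphatase that reverses eIF2 phosphorylation. In HCC38 it measured 25.3, 24.5 and 22.6 CPM untreated and 32.00, 28.97 and 27.9 CPM with interferon-β, without overlap (0.29 ± 0.085, adjusted p = 0.0286). The call was lost without any of HCC38 untreated 2, untreated 3 or interferon-β 1 (adjusted p 0.0621 to 0.136), and by limma on FPKM (adjusted p = 0.115). MDA-MB-231 held 152, 128 and 119 CPM untreated and 127, 114 and 126 CPM with interferon-β, which overlap (-0.065 ± 0.082, adjusted p = 0.629). The difference of the responses was -0.36 ± 0.12, adjusted p = 0.051.

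STC2, a secreted glycoprotein induced by ATF4, was low in MDA-MB-231 and rose there. It measured 3.14, 2.80 and 1.28 CPM untreated and 4.76, 3.20 and 3.56 CPM with interferon-β. The treated libraries lie above the untreated ones by a small margin, a rise of 1.96-fold (0.97 ± 0.15, adjusted p = 0.000123). Among numbers 1 and 2 it was 0.68 and among numbers 4 and 5 it was 1.40, each with 1 library in an arm. Limma on log2(FPKM + 1), where low values are compressed, gave 0.31 (adjusted p = 0.446). HCC38 held 37.6, 36.3 and 34.4 CPM untreated and 41.3, 38.6 and 35.96 CPM with interferon-β, which overlap (0.097 ± 0.098, adjusted p = 0.601). The responses differed by 0.88 ± 0.18, adjusted p = 0.00375, and without the untreated MDA-MB-231 library numbered 4 by 0.58 (adjusted p = 0.108).

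The remaining amino acid members were called in neither response. TRIB3, a pseudokinase that restrains ATF4 signalling, spanned 68.9 to 96.0 CPM in HCC38 and 20.7 to 40.6 CPM in MDA-MB-231. CHAC1, which degrades glutathione, spanned 1.04 to 2.22 CPM and 1.57 to 8.68 CPM, with changes of -0.65 ± 0.26, adjusted p = 0.128, and -0.56 ± 0.22, adjusted p = 0.068. VLDLR, a lipoprotein receptor that PERK signalling can raise, spanned 11.0 to 13.4 CPM and 22.9 to 30.2 CPM.

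In the ER branch, 4 of 16 members rose in HCC38, where 5.81% of all genes were called higher, and 5 of 16 fell in MDA-MB-231, where 11% were called lower. The HCC38 genes were the chaperones HSPA5, HSP90B1 and CALR and the disulfide isomerase PDIA4. The MDA-MB-231 genes were ATF6, HSPA5, DNAJC3, HERPUD1 and SEL1L. HSPA5 was the ER member called in both lines, in opposite directions. The HCC38 count was 4 in every leave-one-out fit. The MDA-MB-231 count was 1 without the untreated library numbered 4, 3 without the treated library numbered 5, 3 with library totals and 0 by limma on FPKM.

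HSPA5 encodes BiP, the chaperone that binds the sensors at rest. In HCC38 it measured 932, 973 and 964 CPM untreated and 1182, 1108 and 1177 CPM with interferon-β, without overlap, a rise of 1.21-fold (0.27 ± 0.064, adjusted p = 0.00783). MDA-MB-231 held 2058, 1873 and 1424 CPM untreated and 1823, 1088 and 1086 CPM with interferon-β, and there the treated library numbered 1 lies above the untreated library numbered 4. The change was -0.25 ± 0.067, adjusted p = 0.0106. It was -0.11 among numbers 1 and 2 (adjusted p = 0.538) and -0.39 among numbers 4 and 5 (adjusted p = 0.00122). The call was lost without the untreated library numbered 4 (adjusted p = 0.499), and with library totals or FPKM. The responses differed by -0.52 ± 0.093, adjusted p = 0.001, called in every leave-one-out fit.

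HSP90B1 encodes GRP94, the HSP90 of the ER. HCC38 held 1561, 1751 and 1720 CPM untreated and 2374, 2060 and 2429 CPM with interferon-β, without overlap, a rise of 1.36-fold (0.45 ± 0.072, adjusted p = 0.000257). MDA-MB-231 held 2128, 1970 and 1193 CPM untreated and 1698, 1191 and 1128 CPM with interferon-β. Its groups overlap and the libraries numbered 4 and 5 are low in both, and the fit gave -0.16 ± 0.077, adjusted p = 0.161. The responses differed by -0.60 ± 0.11, adjusted p = 0.000882.

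PDIA4, a disulfide isomerase, and CALR, the lectin chaperone calreticulin, followed HSP90B1 in HCC38. PDIA4 measured 317, 314 and 316 CPM untreated and 399.5, 402 and 384 CPM with interferon-β, without overlap, a rise of 1.25-fold (0.32 ± 0.064, adjusted p = 0.00188). CALR measured 1816, 1778 and 1758 CPM untreated and 2414, 2210 and 2203 CPM with interferon-β, without overlap, a rise of 1.28-fold (0.35 ± 0.076, adjusted p = 0.00415). The 4 HCC38 rises stayed called in every leave-one-out fit and by DESeq2, while limma on FPKM ended that of CALR (adjusted p = 0.0749) and the fit without the set term ended all 4.

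In MDA-MB-231, PDIA4 held 348, 338 and 203 CPM untreated and 285, 198 and 216 CPM with interferon-β, and CALR 2423, 2260 and 1064 CPM untreated and 2031, 1218 and 1317 CPM with interferon-β. Both overlap between groups and split by library set. The changes were -0.12 ± 0.069, adjusted p = 0.243, and 0.023 ± 0.083, adjusted p = 0.906. Group means of CALR fell from 1916 to 1522 CPM, while the change with the set term was 0.023. The responses of the lines differed for PDIA4 (-0.44 ± 0.094, adjusted p = 0.0042), a call that limma on FPKM ended, and the difference for CALR was -0.33 ± 0.11, adjusted p = 0.0622.

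Among the sensors, ATF6 was called in MDA-MB-231. It measured 136, 135 and 114 CPM untreated and 120.2, 96.9 and 89.1 CPM with interferon-β, where the untreated library numbered 4 lies below the treated library numbered 1, and the change was -0.23 ± 0.073, adjusted p = 0.028. HCC38 held 240.1, 261 and 246 CPM untreated and 260.1, 249 and 297 CPM with interferon-β, which overlap (0.11 ± 0.068, adjusted p = 0.354). The responses differed by -0.34 ± 0.10, adjusted p = 0.0312. The MDA-MB-231 call was lost without untreated 3 or interferon-β 3 (adjusted p 0.0907 to 0.37), and the difference without any of 5 libraries, namely HCC38 untreated 1 or 3 or interferon-β 3 and those 2 of MDA-MB-231 (adjusted p 0.0592 to 0.209). Library totals ended both calls, and so did limma on FPKM (adjusted p = 0.316 and 0.0535). By limma on FPKM, ATF6 was called higher in HCC38 (0.236 ± 0.055, adjusted p = 0.0439).

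EIF2AK3 encodes PERK. It measured 26.5, 24.7 and 24.1 CPM untreated and 24.4, 21.2 and 25.7 CPM with interferon-β in HCC38 and 32.2, 29.4 and 33.04 CPM untreated and 36.03, 31.8 and 27.3 CPM with interferon-β in MDA-MB-231. The groups overlap and neither change was called (-0.081 ± 0.10 and 0.031 ± 0.10). XBP1, the mRNA that IRE1 splices, measured 58.6, 55.5 and 56.8 CPM untreated and 59.5, 58.97 and 61.4 CPM with interferon-β in HCC38 and 97.9, 78.2 and 76.2 CPM untreated and 99.2, 71.6 and 72.5 CPM with interferon-β in MDA-MB-231. The HCC38 groups are just separate and the others overlap, with changes of 0.074 ± 0.080 and 0.047 ± 0.081, neither called. ERN1 spanned 12.4 to 15.01 CPM in HCC38 and 10.2 to 18.4 CPM in MDA-MB-231 and was not called.

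HERPUD1, an ER membrane protein of ER-associated degradation, measured 77.2, 57.6 and 92.4 CPM untreated and 70.8, 34.2 and 34.9 CPM with interferon-β in MDA-MB-231. The treated libraries numbered 4 and 5 are far below the rest, while the treated library numbered 1 lies between the untreated ones. The change was -0.67 ± 0.18, adjusted p = 0.012 over both sets. It was 0.069 among numbers 1 and 2 (adjusted p = 0.87) and -1.42 among numbers 4 and 5 (adjusted p = 1.75e-09). The difference between those responses was -1.49 ± 0.17, adjusted p = 0.000378, the 1 call among the members in a test that called 0.0607% of all genes. In each set 1 arm is a single library, the treated number 1 or the untreated number 4. The call over both sets was lost without untreated 3, interferon-β 2 or interferon-β 3 (adjusted p 0.056 to 0.846). HCC38 held 106, 106 and 109 CPM untreated and 85.1, 90.99 and 84.4 CPM with interferon-β, without overlap, and the change was -0.30 ± 0.18, adjusted p = 0.33 in the fit of all 12 libraries. In a fit of the 6 HCC38 libraries alone the change was -0.29 (adjusted p = 0.00666).

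SEL1L, the scaffold of the HRD1 ubiquitin ligase in that pathway, fell in MDA-MB-231, where it measured 264, 265 and 238 CPM untreated and 228, 168 and 163 CPM with interferon-β. The groups do not overlap (-0.37 ± 0.076, adjusted p = 0.0014). HCC38 held 152, 176 and 173 CPM untreated and 162, 155 and 173 CPM with interferon-β, which overlap (-0.033 ± 0.073, adjusted p = 0.837). Without the untreated MDA-MB-231 library numbered 4 the change was -0.21 (adjusted p = 0.212). The difference between lines (-0.34 ± 0.10, adjusted p = 0.0423) was lost without any of 7 libraries, namely HCC38 untreated 1 or 3 or interferon-β 1 or 3 and MDA-MB-231 untreated 3 or interferon-β 2 or 3 (adjusted p 0.0558 to 0.446).

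DNAJC3 encodes p58IPK, a co-chaperone of BiP first known as an inhibitor of PKR and PERK. In MDA-MB-231 it measured 168, 153 and 154 CPM untreated and 146, 105 and 101 CPM with interferon-β, without overlap (-0.36 ± 0.084, adjusted p = 0.00383). In HCC38 it measured 121, 131 and 126 CPM untreated and 121, 115 and 132 CPM with interferon-β, which overlap (-0.040 ± 0.081, adjusted p = 0.817). Without the untreated MDA-MB-231 library numbered 4 the change was -0.14 (adjusted p = 0.478), and limma on FPKM gave an adjusted p of 0.183. The difference between lines was -0.32 ± 0.12, adjusted p = 0.0785.

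DNAJB9, EDEM1, SDF2L1, CRELD2 and MANF were called in neither response. DNAJB9, a co-chaperone that represses IRE1, spanned 8.84 to 12.1 CPM in HCC38 and 13.6 to 24.2 CPM in MDA-MB-231. Its MDA-MB-231 change was 0.53 among numbers 1 and 2 (adjusted p = 0.0461) and -0.43 among numbers 4 and 5 (adjusted p = 0.0805), a difference of -0.97 ± 0.22 with an adjusted p of 0.129. EDEM1, a lectin of ER degradation, spanned 124 to 187 CPM over all libraries, and SDF2L1, a partner of BiP, 12.2 to 22.2 CPM. MANF, a secreted factor retained with BiP, spanned 45.3 to 85.7 CPM, and CRELD2, an ER protein induced by ATF6, 18.5 to 108 CPM.

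The difference between the responses of the lines was called for 10 of 38 members, 3 higher and 7 lower in MDA-MB-231, where 12.2% of all genes were called (5.77% higher, 6.47% lower). The higher ones were DDIT4, CEBPB and STC2. The lower ones were PSAT1 and MTHFD2 of the amino acid branch and ATF6, HSPA5, HSP90B1, PDIA4 and SEL1L of the ER branch. With library totals, genes with a higher difference made up 69.1% of all calls, against 47.2% with TMM. In the ER branch the count of lower differences was 5 with TMM, 3 with library totals and 1 by limma on FPKM, and it was 3 without any of HCC38 untreated 1, untreated 3 or interferon-β 3.

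More members were called between the lines than after treatment. Of 38 members, 35 were called between untreated MDA-MB-231 and HCC38, 25 higher and 10 lower in MDA-MB-231, where 79.8% of all genes were called (38.4% higher, 41.4% lower). With interferon-β, 34 were called, 23 higher and 11 lower, where 79.4% of all genes were called (38.8% higher, 40.6% lower). The share is thus high for genes in general. Per length, the most abundant members in untreated HCC38 were CALR at 1052 ± 27.2 FPKM, HSP90B1 at 632 ± 33.5 FPKM, HSPA5 at 308.5 ± 3.60 FPKM and ATF4 at 215 ± 4.42 FPKM (mean ± SD, n = 3).

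PPP1R15A was the member highest above HCC38 in untreated MDA-MB-231, at 5.39-fold (2.43 ± 0.084), and stood at 4.2-fold with interferon-β. CRELD2 was 3.94-fold higher untreated and 3.56-fold treated. PSAT1 was 3.39-fold higher untreated and 2.25-fold treated. Untreated differences above 1 on the log2 scale were also found for DDIT3 (1.31 ± 0.18), CHAC1 (1.27 ± 0.22) and CEBPG (1.12 ± 0.088). For ASNS, limma on log2(FPKM + 1) gave 1.21 untreated and 0.41 treated. With interferon-β, DDIT4 (1.17 ± 0.076), SLC7A5 (1.17 ± 0.089) and VLDLR (1.39 ± 0.10) passed the same mark.

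STC2 was 17.2-fold lower in untreated MDA-MB-231 (-4.10 ± 0.13) and 9.37-fold lower with interferon-β. CEBPB was 3.15-fold lower untreated and 1.39-fold lower treated. TRIB3 (-1.47 ± 0.10), ATF5 (-1.29 ± 0.10) and ATF6 (-1.01 ± 0.071) were lower too, besides PHGDH. HSP90B1 did not pass the test between untreated lines (-0.081 ± 0.073, adjusted p = 0.313) and was lower in MDA-MB-231 with interferon-β (-0.69 ± 0.074, adjusted p = 4.08e-08).

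**Figure D3:**
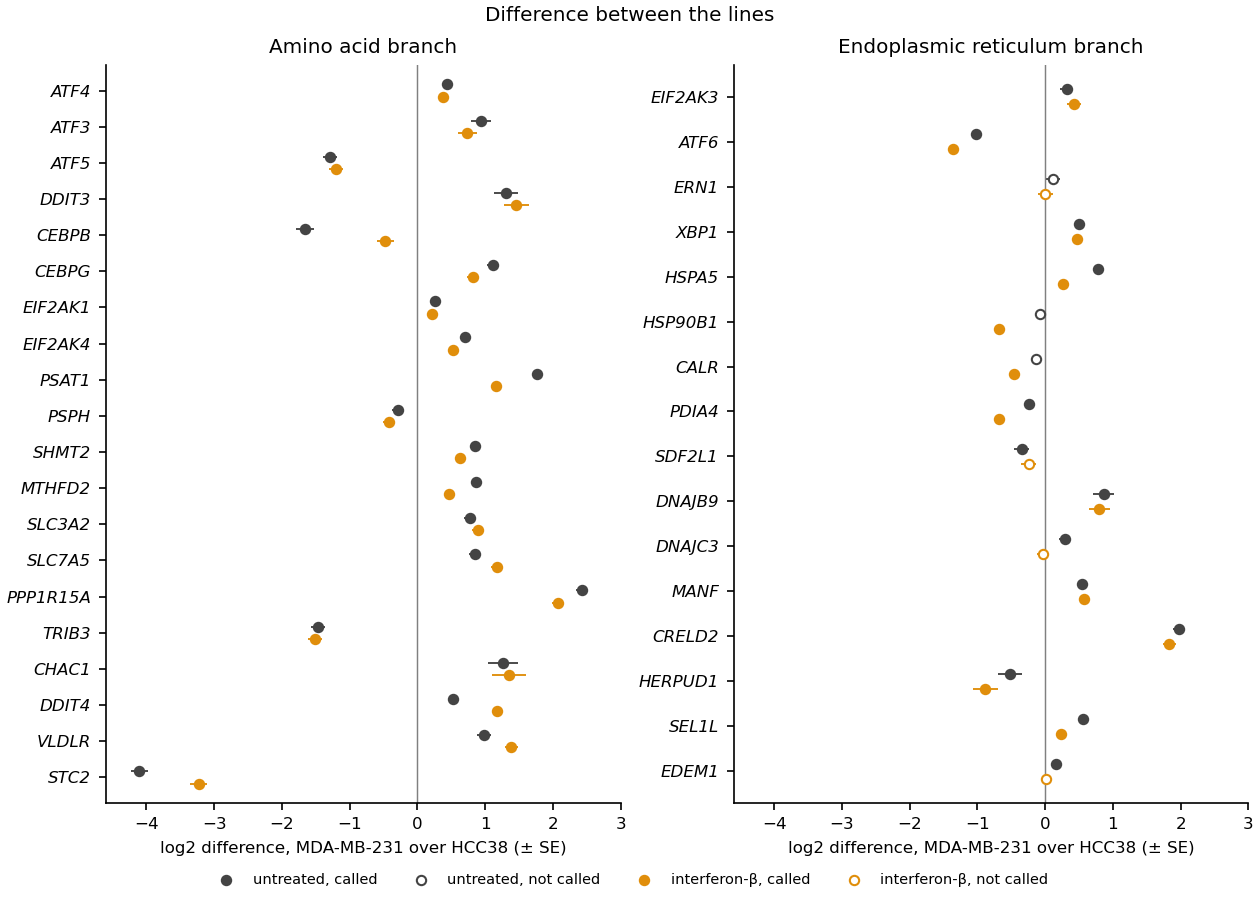
Log2 difference between MDA-MB-231 and HCC38 for the members, untreated and with interferon-β, with the SE as a bar; filled points were called, and PHGDH and ASNS are left out. PPP1R15A at 2.43 and CRELD2 at 1.98 lie farthest to the right without treatment, and STC2 at -4.10 farthest to the left.

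Within MDA-MB-231, most members were lower in the libraries numbered 4 and 5 than in those numbered 1 and 2. The set term was called for 24 of 38 members, 23 lower and 1 higher, where 23.7% of all genes were called (10.8% higher, 12.9% lower). The median over the members was -0.345, beside -0.004 over all genes. In the ER branch 13 of 16 were lower. CALR was lowest there, at -0.91 ± 0.083, followed by HSP90B1 (-0.67 ± 0.078), PDIA4 (-0.61 ± 0.069), HSPA5 (-0.60 ± 0.067) and CRELD2 (-0.60 ± 0.093). In the amino acid branch 10 of 22 were lower and SLC7A5 was higher (0.34 ± 0.092). CHAC1 (-1.57 ± 0.22), TRIB3 (-0.77 ± 0.11), DDIT4 (-0.76 ± 0.078) and ATF4 (-0.64 ± 0.064) were among the lower ones. By limma on FPKM the set difference of ASNS was -1.37.

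Of 20 cytosolic heat shock genes, 6 were called higher and 2 lower in the same libraries. The shares over all genes were 10.8% higher and 12.9% lower. HSP90AA1 was higher by 0.56 ± 0.074 and CHORDC1 by 0.60 ± 0.086. In the ER branch the count of lower set calls was 6 without the treated library numbered 1.

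**Figure D4:**
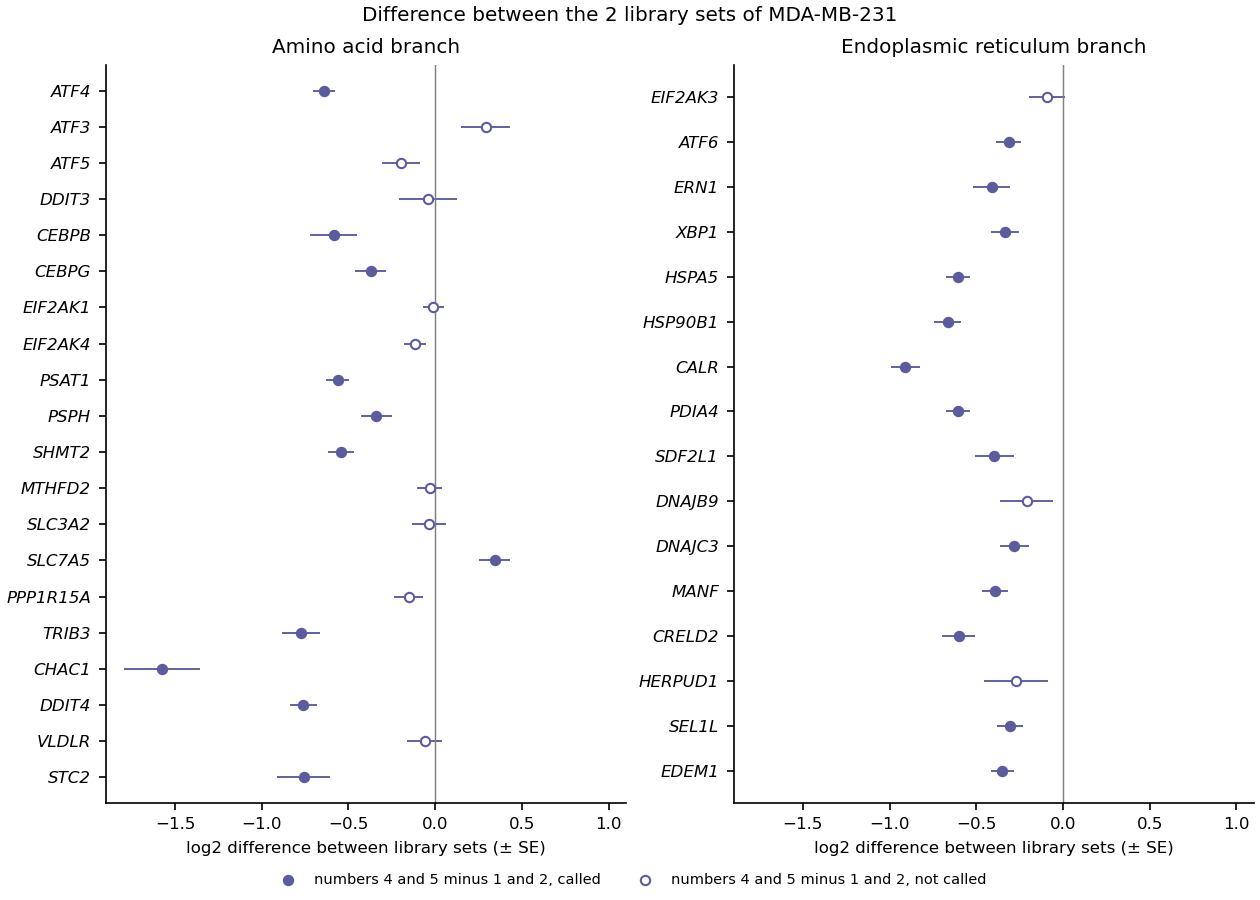
Log2 difference between MDA-MB-231 libraries numbered 4 and 5 and those numbered 1 and 2, with the SE as a bar, for the members other than PHGDH and ASNS; filled points were called. All ER genes lie to the left of 0, and SLC7A5 is the called member to the right.

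Other genes of the same pathways were taken from lists that stand beside the members. Cytosolic aminoacyl-tRNA synthetases, which charge tRNA and are partly under ATF4, were called lower in MDA-MB-231 for 17 of 20 genes, where 11% of all genes were called lower, with a median of -0.33. LARS1, for leucine, measured 397, 386 and 361 CPM untreated and 253, 182 and 179 CPM with interferon-β, and IARS1, for isoleucine, 786, 738 and 636 CPM untreated and 475, 372 and 347 CPM with interferon-β. The treated libraries are below the untreated ones for both genes (-0.81 ± 0.078, adjusted p = 1.95e-07, and -0.75 ± 0.063, adjusted p = 3.12e-08). EPRS1, for glutamate and proline, changed by -0.70 ± 0.081, adjusted p = 2.65e-06, and FARSB, a subunit for phenylalanine, by -0.69 ± 0.097, adjusted p = 3.02e-05.

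In HCC38, 18 of 20 synthetase genes were not called and the median was 0.052. The 10% that were called is near the 10.6% of all genes. WARS1, for tryptophan and interferon-inducible, rose (0.54 ± 0.068, adjusted p = 1.5e-05), and QARS1, for glutamine, fell (-0.23 ± 0.061, adjusted p = 0.0171). LARS1 changed by -0.036 ± 0.075 and IARS1 by -0.086 ± 0.060. WARS1 was called lower in MDA-MB-231 (-0.23 ± 0.073, adjusted p = 0.0258), and its responses differed by -0.77 ± 0.10, adjusted p = 3.68e-05. The difference between lines was called lower for 15 of 20, where 6.47% of all genes were. Leaving out the untreated MDA-MB-231 library numbered 4 reduced the MDA-MB-231 count to 10 and the difference to 9, and limma on FPKM gave 11 and 4. Within numbers 1 and 2 the count was 10, and within numbers 4 and 5 it was 15, each with 1 library in an arm. The ATF4 element stood in 7 of 16 synthetase genes with a promoter entry (43.8%), against 4.46% of all genes. A link between the element and the falls was not tested.

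**Figure D5:**
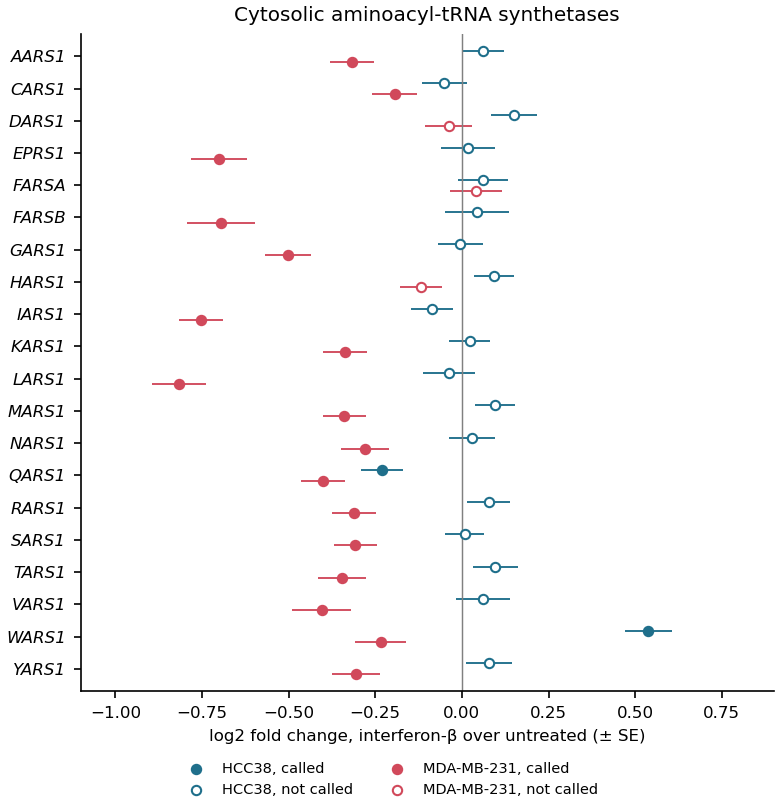
Log2 fold change of 20 cytosolic aminoacyl-tRNA synthetase genes after interferon-β in each line, with the SE as a bar; filled points were called. In MDA-MB-231 17 genes were called lower, LARS1 farthest at -0.81, and in HCC38 WARS1 is the called gene to the right, at 0.54.

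Among 28 tested genes of a wider amino acid and ATF4 list, 3 rose and 5 fell in HCC38, and 5 rose and 8 fell in MDA-MB-231. That is 28.6% and 46.4% of the list called, beside 10.6% and 22.6% of all genes. GDF15, a secreted stress cytokine, rose in both, by 1.37 ± 0.32 and 1.78 ± 0.19. Its level was low in HCC38, 0.771 ± 0.442 CPM untreated and 1.938 ± 0.373 CPM with interferon-β. In MDA-MB-231 it was 11.63 ± 4.964 and 30.75 ± 10.69 CPM (mean ± SD). BATF2 rose in both as well (1.64 ± 0.15 and 1.96 ± 0.16) and is known as an interferon-induced factor. ERO1A, an ER oxidase, rose in HCC38 (0.23, adjusted p = 0.0164). CEBPD rose in MDA-MB-231 (1.12 ± 0.11) and was not called in HCC38 (-0.22 ± 0.097, adjusted p = 0.162), with a difference called at 1.34 ± 0.14, adjusted p = 3.49e-06. Falls in MDA-MB-231 included XPOT, an exporter of tRNA (-0.57 ± 0.073), PYCR1 of proline synthesis (-0.53) and the cystine transporter gene SLC7A11 (-0.46). Those in HCC38 were KLHL24, NUPR1, ALDH1L2, PYCR1 and RHOQ, by -0.41 to -0.27. Without the untreated library numbered 4 the MDA-MB-231 counts were 3 higher and 2 lower, and without any 1 of the HCC38 libraries the HCC38 count of falls was 1 to 3.

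In the machinery around eIF2, 1 of 19 genes rose and 5 fell in MDA-MB-231, where 11.6% of all genes were called higher and 11% lower. EIF2AK2 was the one that rose. EIF2S3, a subunit of eIF2 (-0.35 ± 0.074), EIF2S2 (-0.21), EIF2B4 of the exchange factor (-0.24 ± 0.086), DELE1, which relays mitochondrial stress (-0.23 ± 0.074), and DNAJC3 fell. In HCC38 EIF2AK2 and EIF2B2 (0.22, adjusted p = 0.045) rose, which is 10.5% of the list, near the 10.6% of all genes called. The 5 falls became 0 to 3 without any of untreated 2 or 3 or interferon-β 2 or 3, and 8 without the treated library numbered 1.

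A wider ER list had 49 tested genes, of which 4 rose and 4 fell in HCC38 and 10 rose and 10 fell in MDA-MB-231. That is 16.3% and 40.8% of the list called, beside 10.6% and 22.6% of all genes. The HCC38 rises were PDIA3 (0.33, adjusted p = 0.0065), PDIA6 (0.23), ERP44 (0.27) and HSPA13 (0.23), and the falls were SEC61G (-0.56), SEC61B (-0.35), CREB3L2 (-0.30) and ERGIC1 (-0.21). In MDA-MB-231 the folding checkpoint gene UGGT1 fell, measuring 152, 156 and 167 CPM untreated and 104, 94.5 and 87.2 CPM with interferon-β (-0.73 ± 0.071, adjusted p = 2.92e-07), without overlap, and CANX, the membrane partner of CALR, fell as well (-0.52). BCL2L11, which encodes the death factor BIM, rose, measuring 10.5, 10.6 and 13.02 CPM untreated and 17.7, 27.8 and 26.8 CPM with interferon-β (0.91 ± 0.092, adjusted p = 4.17e-07), also without overlap. BBC3, which encodes PUMA, changed by 0.85 ± 0.21, and TXNDC11, a thioredoxin-domain protein, by 0.58 ± 0.087. Of the ER-associated degradation genes SYVN1, OS9, EDEM3, EDEM2, DERL1 and DERL2 on that list, SYVN1 (0.31) and OS9 (0.21) rose, EDEM3 (-0.26) fell and the rest were not called. Without the untreated library numbered 4 the counts were 2 higher and 6 lower, and without the treated library numbered 5 the count of rises was 5. In HCC38 they were as low as 1 higher without untreated library 1 and 1 lower without untreated library 3.

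Cytosolic heat shock genes had no call in HCC38 by edgeR among 20 tested, with 4 at an unadjusted p under 0.05 and 2 called by DESeq2. In MDA-MB-231 4 rose and 7 fell, beside 11.6% and 11% of all genes, among them HSPB1 (0.53 ± 0.12) and HSPA1B (0.48 ± 0.15) upward and CHORDC1 (-0.62 ± 0.086) and HSP90AA1 (-0.45 ± 0.074) downward. BAG3 (0.34) and DNAJA1 (0.28) rose as well. HSPA1B shares near-identical sequence with HSPA1A, so its counts are uncertain. Of 15 mitochondrial stress genes, HSPE1, HTRA2 and SOD2 fell in HCC38 (-0.41, -0.33 and -0.33) and TRAP1, HSPD1 and HSPA9 in MDA-MB-231 (-0.41, -0.37 and -0.285), 20% of the list in each line beside 10.6% and 22.6% of all genes. Without the untreated MDA-MB-231 library numbered 4, the MDA-MB-231 counts were 0 higher and 3 lower for heat shock genes and 0 lower for mitochondrial genes. Without HCC38 interferon-β library 1, the HCC38 count of mitochondrial genes was 0.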

How the data were processed

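RNA-seq of 12 libraries, 3 in each of 4 groups, was used as deposited. Per the submitters' processing notes the tools were fastp 0.23.2, HTSeq 2.0.2 and Cufflinks 2.2.1 with build GRCh38.p13. Which aligner and strand setting were used is not given in the sources used here. The authors deposited raw counts per gene and FPKM values. FPKM served for levels per length, for ASNS and for an alternative test with limma 3.58.1 on log2(FPKM + 1).

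Counts were tested with edgeR 4.0.16 (TMM scaling, filterByExpr, quasi-likelihood test, Benjamini-Hochberg adjustment over all genes tested), with 1 coefficient per group and 1 for the MDA-MB-231 numbers 4 and 5. The fitting was tested on simulated data. The alternatives were no set term, other scalings, DESeq2 1.42.0, no filter, FPKM, each line's libraries alone, a replicate block, fits within sets and leaving out each library. The fit within sets by treatment and the bounds for PHGDH were added after seeing the data.

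The members and gene lists were chosen with earlier results of these data known. Named genes outside the members are those of the lists with the largest called changes, together with others named after their values were seen.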

Additional observations from a re-analysis of the deposited data

Results flagged for a closer look

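Each of these genes had a response to interferon-β that differed between the lines by the interaction term of the edgeR fit (MDA-MB-231 response minus HCC38 response, log2, adjusted p under 0.05). Among the members, DDIT4 (0.65), CEBPB (1.18) and STC2 (0.88) had the higher response in MDA-MB-231. PSAT1 (-0.59), MTHFD2 (-0.39), ATF6 (-0.34), HSPA5 (-0.52), HSP90B1 (-0.60), SEL1L (-0.34) and PDIA4 (-0.44) had the lower one.

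Of the wider lists, only the genes of each list with the largest called responses in either line were screened for this. Among them the response was higher in MDA-MB-231 for CEBPD (1.34), HSPB1 (0.74), EIF2AK2 (0.73) and BCL2L11 (0.84). It was lower for XPOT (-0.51), CHORDC1 (-0.58), HSP90AA1 (-0.57), UGGT1 (-0.53), TRAP1 (-0.48), HSPD1 (-0.43), LARS1 (-0.78), IARS1 (-0.67), EPRS1 (-0.72) and FARSB (-0.74). Other genes of those lists also had called differences in both directions, such as WARS1 (-0.77) and SEC61G (0.77).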

How the results depend on the processing

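Without the set term the calls over all genes went from 1913 to 659 in HCC38, from 4095 to 2272 in MDA-MB-231 and from 2218 to 637 for the difference of responses. The members called went from 10 to 0, from 15 to 7 and from 10 to 0. A fit of the 6 HCC38 libraries alone gave 1959 calls in HCC38, with 9 members. By limma on FPKM the calls were 969, 1952 and 690, and 2297 for the library set (4286 in the edgeR fit), with 7 members in MDA-MB-231 and 6 for the difference. Within numbers 1 and 2 the MDA-MB-231 calls were 1068, with 7 members. The cause of these shifts was not tested. Leaving out each library gave 1209 to 2225 calls in HCC38 (5 to 11 members), 1177 to 4415 in MDA-MB-231 (7 to 16), 821 to 2899 for the difference (7 to 14), 2354 to 4522 for the library set (16 to 26), 12310 to 14843 between untreated lines (30 to 36) and 12223 to 14715 between treated lines (32 to 35). HERPUD1 in MDA-MB-231 turned to 0.069 within numbers 1 and 2 and to 0.070 without MDA-MB-231 untreated replicate 3, and ranged from -1.42 to 0.070 over the fits that left out a library.

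In HCC38 the replicate numbers of the titles showed no pairing: deviations of libraries with the same replicate number correlated at 0.036, -0.12 and 0.024. In MDA-MB-231 they correlated at -0.441, 0.142 and -0.393 with the set term and at 0.274, -0.258 and 0.249 without it. The set term ties the MDA-MB-231 deviations to each other, so they cannot show whether the numbers pair the samples. With the replicate block the calls were 1160 in HCC38, 2099 in MDA-MB-231, 871 for the difference and 170 for the library set, with 5 members in HCC38, 6 for the difference and 2 for the library set. The block ended the HCC38 calls of PSAT1, PHGDH, SHMT2, CEBPB and PPP1R15A, the MDA-MB-231 calls of ASNS, PSPH, SLC3A2, ATF6 and HSPA5, and the differences of MTHFD2, ATF6, SEL1L and PDIA4. Low counts limit ASNS in both lines and PHGDH in MDA-MB-231.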

Other observations

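ERN1, which encodes the IRE1 sensor, differed between the deposited measures. Its FPKM were 1.70, 1.75 and 1.97 in untreated HCC38 and 8.09, 1.69 and 6.28 with interferon-β, while its levels by count were 14.1, 15.01 and 13.5 CPM and 12.4, 13.7 and 13.5 CPM. The treated libraries 1 and 3 are high by FPKM and not by count. In MDA-MB-231 the FPKM of ERN1 spanned 1.341 to 2.105. Limma on log2(FPKM + 1) gave 1.005 ± 0.37 in HCC38, adjusted p = 0.175.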
